A study of Homo sapiens with 6 samples.

Results

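The 13 protein-coding genes of the mitochondrial genome and the nuclear genes of respiratory complex I were compared in MDA-MB231 cells carrying a control or a Ror1 shRNA. Members were all rows of the gene table with a protein-coding symbol of a mitochondrial ND, CO, ATP or CYB gene, or with a symbol beginning NDUFA, NDUFB, NDUFC, NDUFS or NDUFV, leaving out the NDUFAF assembly factors. There were 53 members among 57445 genes, 13 encoded in the mitochondrial and 40 in the nuclear genome. MDA-MB231 is a triple-negative human breast cancer cell line. Both groups carried a lentiviral pGIPZ vector and had been selected with 2 µg/ml puromycin. The 3 shCTL libraries held a non-silencing shRNA, for which the sample labels name an empty vector and the table headers carry the word DMSO, and the 3 shRor1 libraries an shRNA against ROR1, a receptor of non-canonical Wnt signaling. The sources used here do not say whether the replicates were separate cultures, so p-values measure only the spread between these libraries, which may be technical. Table columns give the group but no replicate number, and libraries are called the first, the second and the third by their place in the table.

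Oxidative phosphorylation is built from 2 genomes. Mitochondrial DNA is a small circle transcribed into long precursors from both strands, out of which tRNAs are cut and the mRNAs between them released, while most subunits of the respiratory chain are transcribed in the nucleus and imported as proteins. Complex I takes electrons from NADH, passes them to ubiquinone and pumps protons, its membrane arm resting on the mitochondrial ND proteins and its peripheral arm on nuclear NDUFS and NDUFV proteins. Complexes III, IV and V, which carry electrons to oxygen and make ATP, also mix subunits of both genomes, whereas complex II is wholly nuclear.

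Levels are given as TPM, an abundance that is scaled for transcript length and sums to 1000000 in each library. Genes can therefore be compared per length, but each value is a share of the library, and the deposited values do not carry the sequencing depth. In such shares from bulk RNA, fewer mitochondria, less RNA in each and more RNA of other genes cannot be told apart. ROR1 itself stood at 15.42, 13.49 and 20.56 TPM with the control shRNA and at 9.34, 11.93 and 14.85 TPM with the Ror1 shRNA, so that the groups overlapped (log2 fold change -0.43, adjusted p = 0.984 by limma). The study reported a stable knockdown and showed Ror1 protein by Western blot, which these RNA values do not measure. The mesenchymal marker VIM measured 2399 to 2920 TPM in the 6 libraries, EPCAM 12.6 to 15.8 TPM, ERBB2 26.6 to 34.9 TPM, CDH1 0.8 to 1.47 TPM, and the hormone receptors ESR1 and PGR at most 0.21 and 0.01 TPM. CDH1, encoding E-cadherin, stood higher in every shRor1 than in every shCTL library, as did 6.48% of all genes tested, and did not pass the test (adjusted p = 0.984 by limma). Protein-coding genes held 90.9% to 93.2% of the TPM, and 16036 to 17033 genes reached 1 TPM.

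The mitochondrial mRNAs are packed so closely that neighbours share bases, which bears on how reads can be divided between them. The following 30-base stretches of the mitochondrial plus strand (GRCh37) show both overlaps, with the start codon of MT-ATP6 in capitals in the first, the stop codon of MT-ATP8 in the second, and the 7 bases common to MT-ND4L and MT-ND4 in the third.
MT-ATP6 start within MT-ATP8, chrM:8514-8543: cctgagaaccaaaATGaacgaaaatctgtt
MT-ATP8 end within MT-ATP6, chrM:8556-8585: tgcccccacaatccTAGgcctacccgccgc
MT-ND4L and MT-ND4, chrM:10749-10778: aacctactccaATGCTAAaactaatcgtcc
MT-ATP8 and MT-ATP6 share 46 bases in the annotation. The 13 mitochondrial genes are called mRNAs here and counted 1 by 1, although the genes of an overlapping pair are not separate molecules. Pieces of the mitochondrial genome also lie in nuclear chromosomes, and a read of 50 bases can match both. The next pair shows the same stretch of MT-ATP6 and of its copy MTATP6P1 on chromosome 1, with the differing base in capitals.
MT-ATP6, chrM:8530-8559: aacgaaaatctgttcGcttcattcattgcc
MTATP6P1, chr1:569079-569108: aacgaaaatctgttcActtcattcattgcc
The difference is G19A, counted from 1 at the first base of MT-ATP6, and is 1 of 10 mismatches over the 681 bases of the gene.

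Nuclear members were searched for letters of binding sites of regulators of respiratory genes, because complex I joins their products with those of the mitochondrial genome. Of the members, 33 had a promoter in RefSeq (GRCh38.p14, 250 bases before to 50 after the gene start), among 27305 genes with one. The letters CGCNTGCGC, the core of sites of nuclear respiratory factor 1 (NRF1), stood on either strand in 10 of the 33, or 30.3%, against 9.02% of all promoters. The letters AAGATGGC, the core of YY1 sites, stood in 7 (21.2%) against 3.52%, and CCGGAAG, a core of sites of the ETS factor GABPA, in 5 (15.2%) against 12.2%. A match is a description of sequence, not a bound site. Stretches of 3 promoters with an NRF1 match and 3 with a YY1 match follow, written along the gene's strand with the match in capitals.
NDUFB4 (NRF1), chr3:120596167-120596196, plus strand: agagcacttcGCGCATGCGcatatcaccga
NDUFA8 (NRF1), chr9:122159764-122159793, minus strand: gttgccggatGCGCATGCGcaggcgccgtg
NDUFS7 (NRF1), chr19:1383823-1383852, plus strand: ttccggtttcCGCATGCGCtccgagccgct
NDUFS4 (YY1), chr5:53560649-53560678, plus strand: ttgcctgcagcAAGATGGCggcggtgtcaa
NDUFA6 (YY1), chr22:42090729-42090758, minus strand: gatgctttggcAAGATGGCggggagcggcg
NDUFA9 (YY1), chr12:4649113-4649142, plus strand: gattgtgggaaAAGATGGCggctgccgcac
Both NDUFS7 and NDUFA9, as well as NDUFA3, held an NRF1 and a YY1 match, which did not overlap. In all 7 genes the YY1 match lay after the annotated gene start. Its letters hold ATG, the letters of a start codon, and whether these matches lie at the start of translation was not tested. The share over all promoters was not limited to matches after the gene start. Nor were the promoters behind it matched to those of the members in base composition or expression.

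Mitochondrial mRNAs had means of 1493 to 10580 TPM and did not differ between shCTL and shRor1 beyond the spread of the libraries. Their summed level was 67240, 75606 and 81629 TPM in shCTL, 74825 ± 7226 TPM (SD, n = 3), and 65232, 82415 and 86058 TPM in shRor1, 77902 ± 11123 TPM (SD, n = 3). They took between 6.52% and 8.61% of each library. The lowest library of each group was its first, and the groups overlapped over most of their range. The difference of mean log2 sums was 0.05, and leaving out the first shRor1 library, the lowest of all, moved it to 0.18, while leaving out the third shRor1 library turned it to -0.02.

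Within complex I, the 7 mitochondrial genes encode the hydrophobic core of the membrane arm. MT-ND1, next to the quinone site, measured 2273, 2575 and 2966 TPM in shCTL and 2327, 2761 and 2855 TPM in shRor1. MT-ND2, one of the antiporter-like proton-pumping subunits, measured 5915, 7033 and 6714 TPM in shCTL and 5773, 7433 and 6368 TPM in shRor1. In both genes the first library was the lowest of its group. The shRor1 range of MT-ND1 lay within its shCTL range, and that of MT-ND2 enclosed its shCTL range. MT-ND4, a further antiporter-like subunit, measured 5949, 6750 and 7639 TPM in shCTL and 6141, 8055 and 8775 TPM in shRor1. MT-ND4L, which shares its mRNA with MT-ND4, measured 5639, 6876 and 6898 TPM in shCTL and 5360, 7812 and 8075 TPM in shRor1. These were the 2 mitochondrial genes with the highest fold changes, at 0.17 (SE 0.16) for MT-ND4 and 0.11 (SE 0.17) for MT-ND4L on the log2(TPM + 1) scale, yet the second and the third shRor1 library were high in both and the first among the lowest, so the groups overlapped. MT-ND3, a small subunit at the junction of the arms, measured 3136, 3373 and 3350 TPM in shCTL and 3078, 3412 and 3356 TPM in shRor1. It varied least of all mitochondrial mRNAs, by 1.11-fold from the lowest to the highest library. MT-ND5, the subunit at the tip of the membrane arm, measured 1517, 1338 and 1763 TPM in shCTL and 1544, 1423 and 1693 TPM in shRor1. MT-ND6, the only mRNA of the light strand, measured 1443, 1367 and 1753 TPM in shCTL and 1419, 1374 and 1601 TPM in shRor1. Both differed from the other mitochondrial mRNAs in order, since the second rather than the first library was lowest in each group.

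The other 6 mitochondrial mRNAs encode the cytochrome b of complex III, the catalytic core of complex IV and subunits of ATP synthase. MT-CYB measured 1464, 1621 and 1947 TPM in shCTL and 1549, 1765 and 2029 TPM in shRor1. MT-CO1, which holds the oxygen-reducing site of cytochrome c oxidase, measured 7883, 8781 and 9295 TPM in shCTL and 7074, 9659 and 10392 TPM in shRor1. Its shRor1 values enclosed the shCTL values on both sides. MT-CO2, which receives electrons from cytochrome c, measured 6420, 7168 and 7415 TPM in shCTL and 6031, 7628 and 8186 TPM in shRor1. MT-CO3, also of the core, had the highest mean of all members with 9399, 10868 and 11589 TPM in shCTL and 8904, 11100 and 11614 TPM in shRor1. In both, the first shRor1 library was the lowest and the third the highest of the 6. MT-ATP6, part of the proton channel, measured 7420, 8184 and 9416 TPM in shCTL and 7593, 9113 and 9775 TPM in shRor1. MT-ATP8, a short membrane subunit, measured 8783, 9672 and 10885 TPM in shCTL and 8438, 10879 and 11340 TPM in shRor1. The groups of all 13 mitochondrial mRNAs overlapped, while 7.78% of all genes tested had groups that did not.

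**Figure D1:**
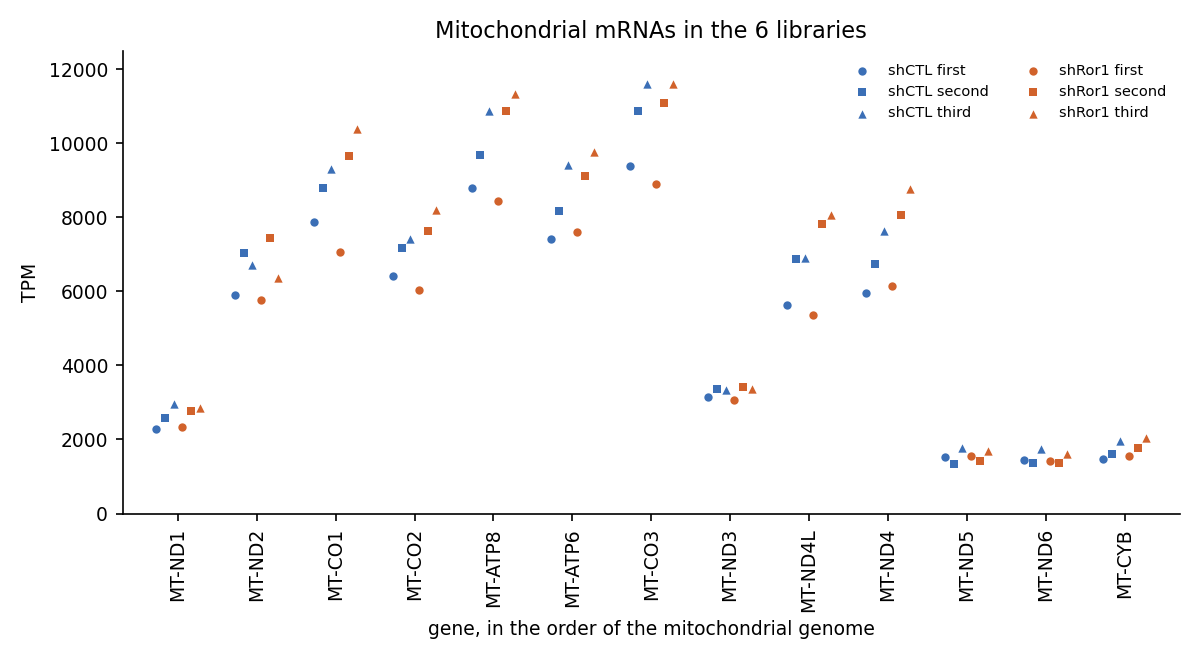
TPM (vertical axis, linear from 0) of the 13 mitochondrial mRNAs, in genome order, in the 3 shCTL (blue) and 3 shRor1 (orange) libraries, 1 point per library. Levels run from about 1493 TPM for MT-ND6 to 10580 TPM for MT-CO3 in mean, and blue and orange points interleave at every gene.

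The mitochondrial mRNAs differed 7.09-fold in mean level per length, from 1493 TPM for MT-ND6, of the light strand, to 10580 TPM for MT-CO3. Their median was 6776 TPM. The study names a kit for total RNA and the sample labels polyA RNA. How far the levels of these mRNAs, and their ratio to nuclear genes, depend on polyA tails was not tested. Among those of the heavy strand, released from common precursors, the lowest mean was 1547 TPM, for MT-ND5. By their shCTL means, the widest step lay between MT-ND4L, at 6471 ± 721 TPM (SD, n = 3), and MT-ND3, at 3286 ± 131 TPM. MT-ND3 and MT-ND1 (2605 ± 348 TPM), and MT-ND1 and MT-CYB (1677 ± 246 TPM), also lay further apart than their SDs, while the lowest neighbours, MT-ND5 (1539 ± 214 TPM) and MT-ND6 (1521 ± 205 TPM), did not. The pair that share 46 bases, MT-ATP8 and MT-ATP6, stood at 9780 ± 1055 and 8340 ± 1007 TPM, and MT-ND4, which shares 7 bases with MT-ND4L, at 6780 ± 846 TPM. Within a group the coefficient of variation of a mitochondrial mRNA was 4.77% to 17.3%, with a median of 12.2%. From the lowest to the highest library the values spanned 1.11-fold to 1.51-fold. Of the 13 mRNAs, 4 were lowest in the first shCTL library, 2 in the second shCTL library and 7 in the first shRor1 library, and 8 were highest in the third shRor1 library.

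No mitochondrial mRNA passed the test. With limma and Benjamini-Hochberg adjustment over 16554 genes, the adjusted p of the 13 lay between 0.984 and 0.997, and 0 of them had an unadjusted p below 0.05. Among all genes tested, 0 (0.0%) passed at an adjusted p of 0.05 and 472 (2.85%) had an unadjusted p below 0.05, 2.31% higher and 0.544% lower in shRor1. Fold changes were positive in 9 and negative in 4 mitochondrial mRNAs, with a median of 0.047 on the log2 scale beside 0.0545 over all genes tested. Leaving out the first shRor1 library moved these medians to 0.18 and 0.07, and leaving out the third shRor1 library to -0.02 and 0.03. Between MT-ND4 at the top and MT-ND6 at the bottom (-0.05, SE 0.11) lay MT-CYB (0.09), MT-ATP6 (0.08), MT-ATP8 (0.06), MT-CO1 (0.05), MT-CO2 (0.05), MT-ND1 (0.03), MT-ND5 (0.02), MT-ND3 (-0.0026), MT-ND2 (-0.01) and MT-CO3 (-0.01). All of these were smaller than their standard errors, except MT-ND4, whose value exceeded its own slightly. Scaling the libraries by median ratios turned MT-ATP8, MT-CO1, MT-CO2, MT-ND1 and MT-ND5 to negative values, and 9 of 13 were then negative. With each overlapping pair summed instead, 4 of 11 were negative and the median was 0.026.

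Nuclear complex I genes stood far below the mitochondrial mRNAs per length and varied less between libraries. Of 40 genes, 39 passed the filter of at least 1 TPM in at least 3 libraries. NDUFA4L2, a paralog of NDUFA4 known for its induction by hypoxia, did not, at 0.07, 0.23 and 0.35 TPM in shCTL and 0.12, 0.51 and 1.90 TPM in shRor1. Means of the 39 ran from 32.8 to 292.8 TPM with a median of 98.2 TPM, and the within-group coefficient of variation from 2.51% to 21.6% with a median of 6.1%. Their lowest and highest libraries differed by a median of 1.203-fold, against 1.318-fold for the mitochondrial mRNAs. The median standard error of a log2 fold change was 0.08 for the nuclear and 0.13 for the mitochondrial members.

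The 7 nuclear core subunits, which carry the flavin and the iron-sulfur clusters from NADH towards the quinone, lay within a narrow band, and 6 of them are described. NDUFV1, the NADH-binding subunit, measured 127, 134 and 144 TPM in shCTL and 140, 126 and 127 TPM in shRor1. NDUFV2, beside it in the NADH module, measured 137, 132 and 135 TPM in shCTL and 134, 137 and 143 TPM in shRor1. NDUFS1, the largest iron-sulfur subunit, measured 99.8, 96.0 and 105 TPM in shCTL and 94.5, 98.0 and 110 TPM in shRor1. In these 3 the groups overlapped, and the lowest and highest libraries of NDUFS1 were both shRor1 libraries. NDUFS3, of the module that leads to the quinone, measured 84.9, 82.7 and 82.6 TPM in shCTL and 85.1, 80.3 and 69.6 TPM in shRor1. NDUFS7, holding the last cluster of the chain, measured 67.54, 61.42 and 72.90 TPM in shCTL and 73.77, 58.75 and 59.95 TPM in shRor1. NDUFS8, with 2 clusters before it, measured 110, 113 and 111 TPM in shCTL and 122, 109 and 97.2 TPM in shRor1. In NDUFS3 and NDUFS8 the third shRor1 library was lowest and the first shRor1 library highest of the 6. Log2 fold changes of these 6 genes were -0.04 for NDUFV1, 0.04 for NDUFV2, 0.0050 for NDUFS1, -0.09 for NDUFS3, -0.07 for NDUFS7 and -0.03 for NDUFS8, with standard errors of 0.06 to 0.11. Over all 7 core genes 3 were positive and 4 negative, with a median of -0.03.

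Among accessory subunits, which surround the core and serve its assembly and stability, levels ranged more widely. NDUFS5, of the membrane arm, was the highest nuclear member at 316, 290 and 293 TPM in shCTL and 303, 270 and 284 TPM in shRor1. NDUFA4, named as a complex I gene but now assigned to complex IV, followed at 245, 237 and 230 TPM in shCTL and 236, 249 and 240 TPM in shRor1. NDUFB8, often used as a marker of assembled complex I on blots, measured 223, 219 and 232 TPM in shCTL and 226, 198 and 200 TPM in shRor1. At the lower end, NDUFB11 measured 34.7, 31.3 and 35.8 TPM in shCTL and 35.8, 31.6 and 37.7 TPM in shRor1, and its groups overlapped throughout.

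**Figure D2:**
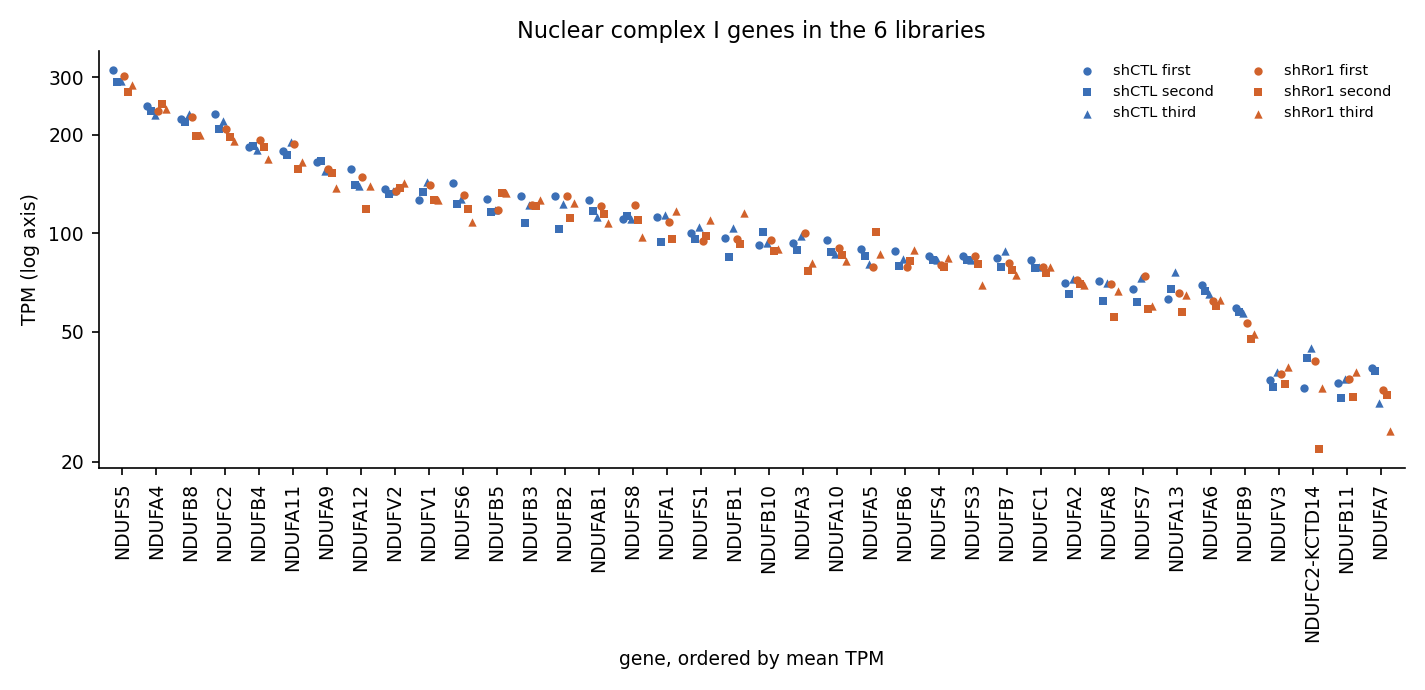
TPM (vertical axis, log scale) of 38 nuclear complex I genes that passed the filter, ordered by mean, in the 3 shCTL (blue) and 3 shRor1 (orange) libraries. Means fall from 292.8 TPM for NDUFS5 to 32.8 TPM for NDUFA7, and orange points lie wholly below blue points only for NDUFC2, NDUFA6 and NDUFB9.

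None of the nuclear members passed the adjusted test either (adjusted p 0.984 to 0.996 by limma), and 1 of 39, NDUFB9, had an unadjusted p below 0.05, lower in shRor1, as had 0.544% of all genes. Log2 fold changes were negative in 26 of 39 (66.67%), where 33.0% of all genes tested were negative, and their median was -0.05 beside 0.05 for all genes. The genes share their libraries and are not independent of each other. Values of the 3 genes whose groups did not overlap, all lower in shRor1, follow, beside the 1.3% of all genes that were lower without overlap. NDUFB9, an accessory subunit of the LYR protein family on chromosome 8, measured 59.1, 57.2 and 56.9 TPM in shCTL and 53.3, 47.3 and 49.1 TPM in shRor1. Every shRor1 library lay below every shCTL library, with means of 57.7 ± 1.19 and 49.9 ± 3.06 TPM (SD, n = 3), a log2 fold change of -0.21 (SE 0.07), an unadjusted p of 0.024 and an adjusted p of 0.984 by limma. Its unadjusted p rose above 0.05 when the first or the second shCTL or the second or the third shRor1 library was left out. NDUFC2, of the membrane arm, measured 231.88, 208.39 and 220.56 TPM in shCTL and 207.71, 196.79 and 191.64 TPM in shRor1. Its highest shRor1 value was 207.71 and its lowest shCTL value 208.39 TPM, so the groups only just separated (log2 fold change -0.15, SE 0.07). NDUFA6, a further LYR protein, measured 69.2, 66.7 and 65.3 TPM in shCTL and 62.2, 59.7 and 62.4 TPM in shRor1 (log2 fold change -0.13, SE 0.07). An exact two-sided permutation test of 3 against 3 libraries cannot go below p = 0.1, which is the value it gave for these 3 genes.

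The lowest fold changes belonged to genes that share sequence with another. NDUFC2-KCTD14, a read-through gene that runs from NDUFC2 into its neighbour, had -0.35 (SE 0.22) and measured 33.6, 41.6 and 44.5 TPM in shCTL and 40.5, 21.8 and 33.5 TPM in shRor1. The second shRor1 library was lowest by far, and leaving it out moved the fold change to -0.10. NDUFA7, of the peripheral arm, had -0.25 (SE 0.14) and measured 38.7, 37.8 and 30.3 TPM in shCTL and 33.1, 31.9 and 24.8 TPM in shRor1. The third library was the lowest of each group, and the groups overlapped. Of the 50-base windows of NDUFA7, 75.9% also lay in transcripts of the overlapping gene ENSG00000167774, which measured 9.56, 11.2 and 13.6 TPM in shCTL and 14.6, 10.5 and 20.4 TPM in shRor1 (log2 fold change 0.34, SE 0.23). Summed with that gene, NDUFA7 had 47.1 ± 2.78 TPM in shCTL and 45.1 ± 2.68 TPM in shRor1 (SD, n = 3), and its fold change moved to -0.06 (SE 0.08). NDUFC2 summed with NDUFC2-KCTD14 gave 260 ± 8.84 and 231 ± 15.6 TPM, a log2 fold change of -0.17 (SE 0.07), an unadjusted p of 0.0457 and an adjusted p of 0.984 by limma, still without overlap. At the other end lay NDUFB1, with 96.4, 84.7 and 104 TPM in shCTL and 96.1, 92.8 and 115 TPM in shRor1 (0.09, SE 0.11), NDUFB5 (0.08, SE 0.08) and NDUFA5 (0.05, SE 0.10), all accessory subunits. NDUFB5 measured 127, 116 and 118 TPM in shCTL and 117, 133 and 133 TPM in shRor1, and NDUFA5 89.3, 84.9 and 80.7 TPM and 78.7, 101 and 86.4 TPM. In these 3 the groups overlapped.

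**Figure D3:**
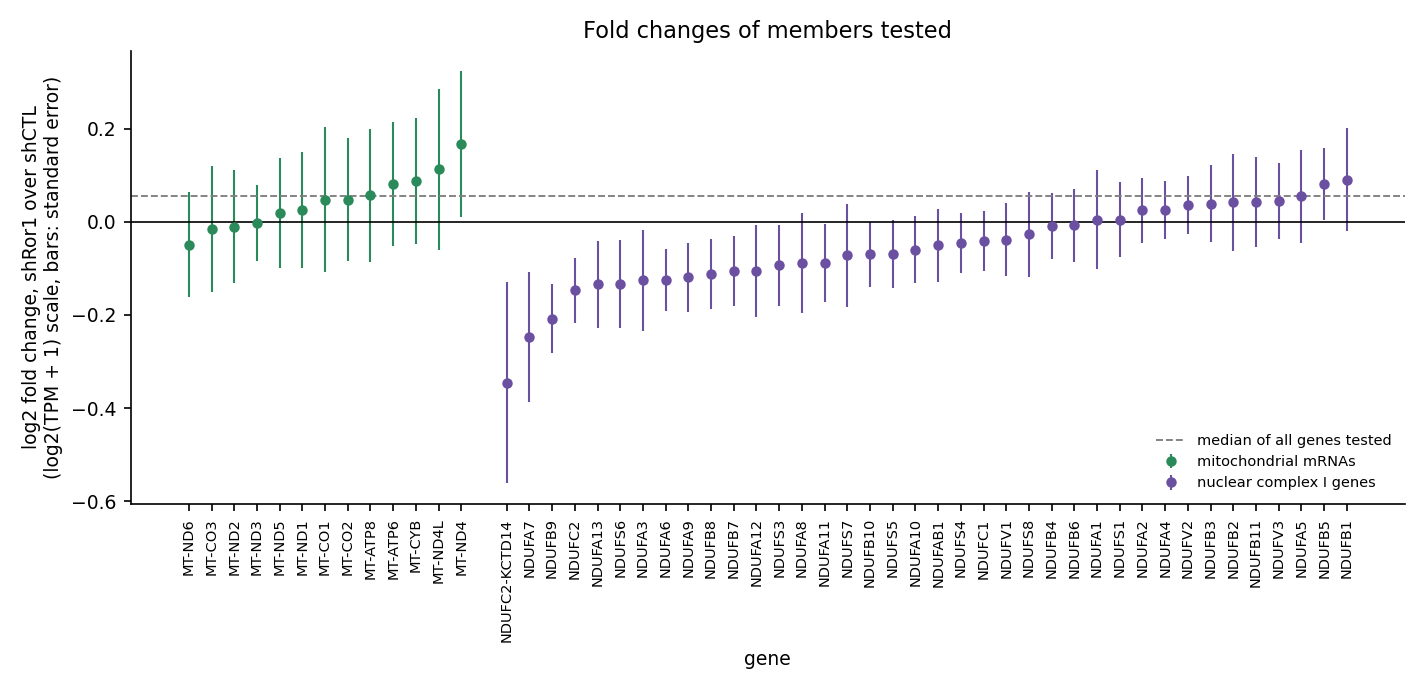
Log2 fold change of shRor1 over shCTL (vertical axis, log2(TPM + 1) scale) with standard errors (bars) for the 13 mitochondrial mRNAs (green) and 38 nuclear complex I genes tested (purple), each sorted by value. The mitochondrial values lie between -0.05 and 0.17, the nuclear ones between -0.35 and 0.09, and the dashed line marks the median of all genes tested, 0.05.

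The sum of the 40 nuclear genes was 4485, 4229 and 4408 TPM in shCTL, 4374 ± 131 TPM (SD, n = 3), and 4399, 4105 and 4190 TPM in shRor1, 4231 ± 151 TPM (SD, n = 3). The first library of each group was the highest, and the groups overlapped, with a difference of mean log2 sums of -0.05, which scaling by median ratios moved to -0.11. The library order of the nuclear sum was thus unlike that of the mitochondrial sum, in which the first library of each group was lowest. Dividing the 2 sums gave ratios of 14.99, 17.88 and 18.52 in shCTL and 14.83, 20.08 and 20.54 in shRor1. The ratio was near 15 in the first library of both groups and higher in the others, at 17.1 ± 1.88 for shCTL and 18.5 ± 3.17 for shRor1 (SD, n = 3), so the groups overlapped. The log2 difference of the ratio was 0.10, and it was 0.0072 with the first shCTL library left out and 0.25 when the first shRor1 library was.

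**Figure D4:**
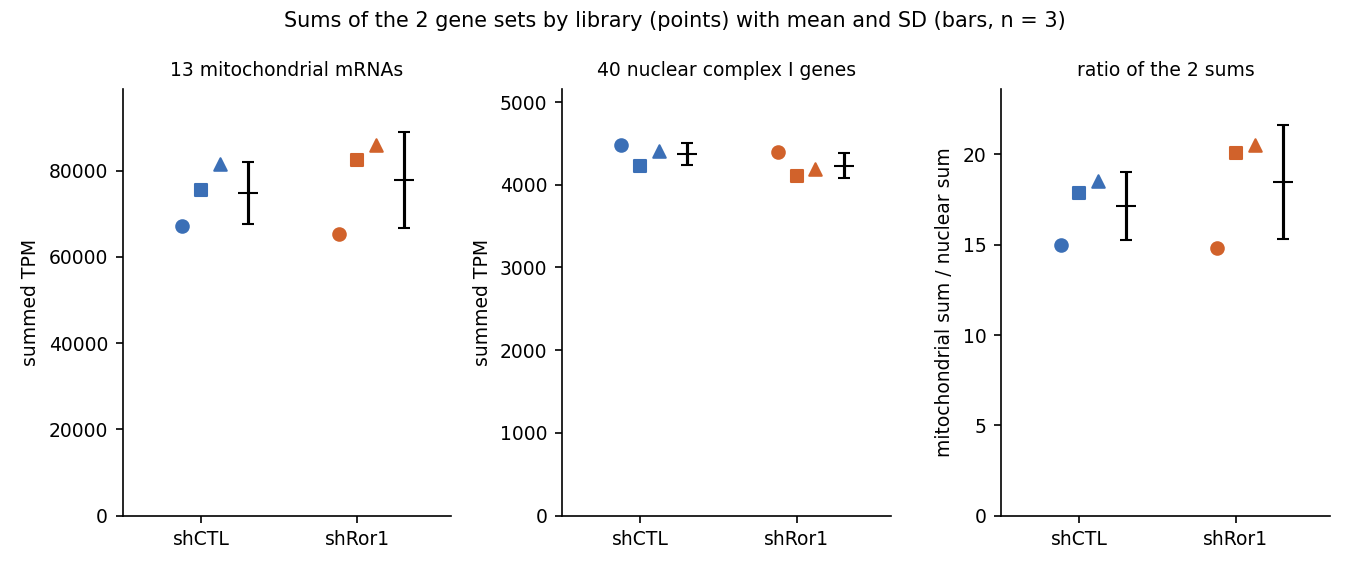
Summed TPM of the 13 mitochondrial mRNAs, summed TPM of the 40 nuclear complex I genes, and their ratio (vertical axes from 0) in each library, with circles, squares and triangles for the first, the second and the third library and bars for the mean and SD (n = 3). The first libraries are lowest in the mitochondrial sum (67240 and 65232 TPM) and highest in the nuclear sum (4485 and 4399 TPM) of their group.

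Member by member, the deviation of log2 TPM, without a pseudocount, from a gene's mean over the 6 libraries was averaged. Over the mitochondrial mRNAs it was -0.16, -0.03 and 0.12 in shCTL and -0.18, 0.08 and 0.17 in shRor1. Over the 39 nuclear genes it averaged 0.06, -0.02 and 0.05 in shCTL and 0.03, -0.08 and -0.04 in shRor1. Most nuclear members were lowest in the second shRor1 library (15), the second shCTL library (10) or the third shRor1 library (10), and 13 were highest in the first shCTL library. For complex I, the median of the 7 ND mRNAs was set against the median of all 40 nuclear members. It was 32.74, 36.84 and 33.13 times as high in shCTL and 32.20, 36.21 and 35.96 times in shRor1. The 40 include NDUFA4, now assigned to complex IV, NDUFA4L2, which did not pass the filter, and the read-through gene NDUFC2-KCTD14. The corresponding ratio of mitochondrial to nuclear medians ran from 7.22 to 11.6 in complex III and 23.8 to 34.1 in complex V. In complex IV it ran from 31.1 to 50.5, but its nuclear median was taken over all 15 listed genes. Only 10 of these passed the filter. COX4I2, COX6A2, COX6B2, COX7A1 and COX8C, at 1.14 TPM or less, lowered that median and raised the ratio. Complex IV is therefore not comparable with the others on this ratio. In each of these complexes the ratios of the groups overlapped. The nuclear median of complex IV was lower in shRor1 without overlap, at 234 ± 1.17 TPM in shCTL and 211 ± 18.4 TPM in shRor1 (SD, n = 3).

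Nuclear genes of the other complexes were measured beside complex I. In complex II, 4 of 4 genes were tested, with 1 positive and 3 negative fold changes (median -0.04), from SDHD (0.03), a membrane anchor, to SDHB (-0.07), the iron-sulfur subunit. In complex III, 3 of 9 were positive (median -0.03), from the core subunit UQCRC2 (0.02) to UQCR10 (-0.10), a small subunit. In complex IV, 10 of 15 genes passed the filter, 4 positive and 6 negative (median -0.02), with COX7A2 (0.03) at the top. COX4I1, the regulatory subunit 4, had means of 360 ± 8.9 TPM in shCTL and 325 ± 24.3 TPM in shRor1 (SD, n = 3), and COX6B1 means of 234 ± 1.17 and 211 ± 18.4 TPM. Both were lower in shRor1 without overlap, as were 1.3% of all genes, with log2 fold changes of -0.15 each and an adjusted p of 0.984 by limma. In complex V, 5 of 18 were positive (median -0.04), from the inhibitor ATP5IF1 (0.06) to ATP5F1D (-0.13), a subunit of the central stalk. No gene of these 4 complexes had an unadjusted p below 0.05. All 4 medians were negative as in complex I, beside 0.05 for all genes.

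Genes that build complex I or express the mitochondrial genome had fold changes of both signs, where 33.0% of all genes tested were negative. Of 16 assembly genes, 9 were positive and 7 negative (median 0.0069), from the chaperone NDUFAF1 (0.15, SE 0.10) to ECSIT (-0.19, SE 0.11). Of 25 genes for mitochondrial DNA replication, transcription and RNA handling, 14 were positive and 11 negative (median 0.01), from FASTKD1 (0.24, SE 0.13), an RNA-binding protein, to HSD17B10 (-0.17, SE 0.11), a subunit of the mitochondrial RNase P. POLG2, the accessory subunit of the mitochondrial DNA polymerase, was higher in shRor1 without overlap, at 33.2 ± 2.74 and 37.8 ± 2.16 TPM (SD, n = 3, log2 fold change 0.19, SE 0.09), as were 6.48% of all genes. Of 8 regulators of biogenesis, 3 were positive and 5 negative (median -0.02), from GABPA (0.17, SE 0.11) to the coactivator PPARGC1A (-0.08, SE 0.21), which measured 1.16 ± 0.446 TPM in shCTL and 1.03 ± 0.389 TPM in shRor1. In these 3 lists 0 genes had an adjusted p or an unadjusted p below 0.05 by limma.

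Other RNAs of the mitochondrial genome followed the mRNAs only in part. MT-RNR1, the small ribosomal RNA, measured 554, 1089 and 712 TPM in shCTL and 502, 583 and 631 TPM in shRor1. MT-RNR2, the large ribosomal RNA, measured 1522, 2100 and 2110 TPM in shCTL and 1521, 1855 and 2189 TPM in shRor1. The first library of each group was the lowest for both, the second shCTL library was far the highest for MT-RNR1, and the groups overlapped (log2 fold changes -0.40, SE 0.23, and -0.04, SE 0.17). The kit named in the study's methods is one for total RNA, while the sample labels name polyA RNA, so the treatment of ribosomal RNA is not settled by the sources. Of the 22 mitochondrial tRNAs, 7 were positive and 15 negative (median -0.05), from MT-TQ (0.20, SE 0.18) to MT-TS1 (-0.61, SE 0.51). MT-TP measured 454, 476 and 427 TPM in shCTL and 404, 414 and 408 TPM in shRor1, lower without overlap (-0.15, SE 0.07), the only such gene of the 22, beside 1.3% of all genes. None of the rRNAs or tRNAs had an unadjusted p below 0.05.

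Copies in the nuclear genome touched the mitochondrial mRNAs unequally. The share of 50-base windows with an exact copy elsewhere in GRCh37 was 50.6% for MT-CO1, 48.3% for MT-ATP6, 43.6% for MT-ND2, 30.9% for MT-CO3, 29.0% for MT-CO2, 25.6% for MT-ND1 and 19.96% for MT-ND6. It was 8.23% or less for MT-ATP8, MT-ND5, MT-ND4 and MT-CYB, and 0% for MT-ND3 and MT-ND4L. The copies listed in the table were low beside the mitochondrial genes. MTATP6P1 (chr1:569076-569756, plus strand), 98.5% identical to MT-ATP6, measured 874, 920 and 1086 TPM in shCTL and 874, 1056 and 1157 TPM in shRor1, on average 11.6% of the level of MT-ATP6. Its order over the libraries was close to that of MT-ATP6, low in both first libraries and highest in the third shRor1 library. MTND2P28, MTCO1P12 and MTND4P12 averaged 355, 330 and 131 TPM, which was 5.43%, 3.73% and 1.81% of MT-ND2, MT-CO1 and MT-ND4. All copies together came to between 2.37% and 2.48% of the mitochondrial sum in each library. How many reads of either kind were placed at the other was not tested.

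**Figure D5:**
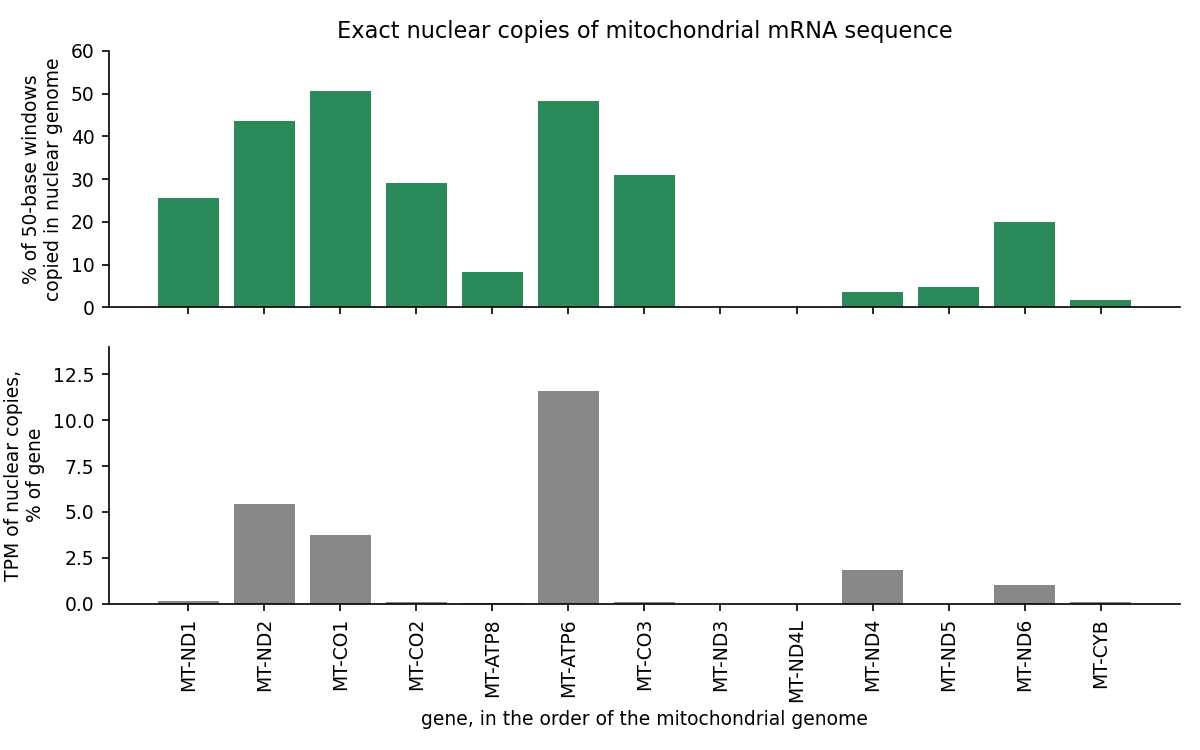
Share of 50-base windows of each mitochondrial mRNA with an exact copy in the nuclear genome (upper bars, percent) and mean TPM of its nuclear copies at 1 TPM or more as a percentage of the gene's own mean TPM (lower bars), in genome order. MT-CO1 (50.6%) and MT-ATP6 (48.3%) are highest in the upper bars, and MT-ATP6 in the lower.

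Among nuclear members, 6 shared at least 50% of their windows with transcripts of 1 other gene. NDUFA13, also known as GRIM-19, shared 82.4% with the read-through gene ENSG00000258674, and is named here after its values were seen. It measured 62.8, 67.5 and 76.0 TPM in shCTL and 65.4, 57.5 and 64.5 TPM in shRor1, with a log2 fold change of -0.13 (SE 0.09). The read-through gene was listed higher than NDUFA13 itself, at 130, 103 and 117 TPM in shCTL and 134, 111 and 120 TPM in shRor1. Their sum was 185 ± 13.1 TPM in shCTL and 184 ± 15.4 TPM in shRor1 (SD, n = 3), a log2 difference of -0.0098, so the level and the fold change of NDUFA13 alone are uncertain. NDUFV2 shared 89.4% with ENSG00000265257, at 7.46 to 12.7 TPM, NDUFB8 70.0% with ENSG00000255339, at 6.17 to 9.36 TPM, and NDUFA11 65.4% with ENSG00000267740, at 0.66 to 2.29 TPM. These 3 partners were low beside the members, and the summed log2 differences of 0.04, -0.10 and -0.09 kept the signs of NDUFV2, NDUFB8 and NDUFA11 alone.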

How the data were processed

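RNA was measured by single-end sequencing of 6 libraries, 3 per condition. The authors made the deposited TPM values with STAR on GRCh37 with an Ensembl annotation and with RSEM 1.2.5, after CASAVA 1.8.2 and FastQC 0.10.0 per the labels, and tested counts with edgeR. The deposited table carries RSEM's term for estimated counts in its name, but every column sums to 1000000 with 2 decimals, so depth is lost and precision rests on the 3 libraries of each group. Of the sample columns, 0 went unused.

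TPM values were transformed to log2(TPM + 1). Genes that reached 1 TPM in 3 or more libraries were tested with limma 3.58.1 (R 4.3.3), with the condition as the only term, a trend of the variance with the mean, and Benjamini-Hochberg adjustment over 16554 genes at 0.05. Exact two-sided permutation tests used SciPy 1.17.1. Identifiers were matched to GENCODE 44 on GRCh37 (55022 of 57445), a later annotation than the authors'. Windows were 50 bases of a member's canonical transcript, on either strand, and 1 member, NDUFB6, had no such transcript. The values of 1 nuclear member are not reported here.

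Members, lists and tests were chosen with earlier results of these data known. Named genes were all mitochondrial mRNAs, the 7 nuclear core subunits, the 3 highest, 3 lowest, 3 most positive and 3 most negative other nuclear members, members without overlap between groups or below the filter, the mitochondrial rRNAs, and the most positive and most negative gene of each list. Alternatives were other filters, pseudocounts, scalings, weights and sums over shared genes, and leaving out each library.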

Additional observations from a re-analysis of the deposited data

How the results depend on the processing

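At an adjusted p of 0.05, 0 members passed in the 19 alternatives. Over all genes 0 passed, except 1 gene, no member, without the third shRor1 library. No paired analysis was possible because replicate numbers, given in the labels, are absent from the column headers. Genes at an unadjusted p below 0.05 numbered 472, 203 to 1363 under other settings and 278 to 1720 with 1 library left out. Members at that threshold numbered 1. With median ratio scaling they numbered 3 (NDUFB9, NDUFC2 and NDUFA6), beside 387 of all 16524 genes tested. They numbered 2 with quantile normalization (beside 371 genes), with rescaling over protein-coding genes (203) and with sums over overlapping nuclear genes (473). The last of these alternatives was chosen after seeing the data. When 1 library was left out, members numbered 0 to 7. The 7 came without the first shRor1 library, beside 1720 of all 16554 genes. The 0 came without the first or the second shCTL or the second or the third shRor1 library, beside 278 to 350 genes. With 1 library left out the log2 difference lay between -0.02 and 0.18 for the mitochondrial sum, -0.08 and -0.03 for the nuclear sum and 0.0072 and 0.25 for their ratio, and median ratio scaling gave -0.11 for the nuclear sum. Nuclear members with negative fold changes numbered 37 of 39 under median ratio scaling and 31 of 39 under quantile normalization, when the median of all genes was 0.0005 and 0.0015.

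Fold changes of 27 members, the mitochondrial mRNAs and the nuclear members named for their role in the core, their fold change or a lack of overlap, were recomputed, and 10 kept their direction throughout and 17 did not, at adjusted p of 0.44 to 1 by limma. Median ratio scaling reversed MT-ATP8 (-0.0041), MT-CO1 (-0.014), MT-CO2 (-0.014), MT-ND1 (-0.035), MT-ND5 (-0.042), NDUFV2 (-0.024), NDUFS1 (-0.055) and NDUFA5 (-0.0058). Quantile normalization reversed MT-CO2 (-0.053), MT-ND3 (0.045) and NDUFS1 (-0.0039). Rescaling over protein-coding genes reversed NDUFS1 (-0.0063). Rescaling without the mitochondrial genome reversed MT-ND3 (0.00057). Array weights reversed MT-CO3 (0.045), MT-ND2 (0.047) and MT-ND3 (0.020). With 1 library left out the values ran from -7.0e-05 to 0.19 for MT-ATP6, -0.024 to 0.19 for MT-ATP8, -0.063 to 0.21 for MT-CO1, -0.043 to 0.18 for MT-CO2, -0.10 to 0.10 for MT-CO3, -0.010 to 0.20 for MT-CYB, -0.068 to 0.12 for MT-ND1, -0.11 to 0.074 for MT-ND2, -0.036 to 0.043 for MT-ND3, -0.078 to 0.12 for MT-ND5, -0.12 to 0.058 for MT-ND6, -0.089 to 0.0081 for NDUFV1, -0.057 to 0.049 for NDUFS1, -0.11 to 0.056 for NDUFS8, -0.041 to 0.14 for NDUFA5 and -0.0042 to 0.16 for NDUFB1. The cause of these changes was not tested.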

Other observations

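Along the mitochondrial genome, 5 neighbouring genes, MT-TH, MT-TS2, MT-TL2, MT-ND5 and MT-ND6, were lowest in the second library of each group, whereas most mRNAs were lowest in the first. They were singled out after their values were seen, and the limit given above for reads at tRNA genes holds here too. MT-TH, the histidine tRNA, measured 236, 174 and 270 TPM in shCTL and 219, 137 and 226 TPM in shRor1. MT-TS2, a serine tRNA, measured 290, 223 and 305 TPM in shCTL and 276, 126 and 289 TPM in shRor1, and MT-TL2, a leucine tRNA, 368, 277 and 347 TPM and 394, 195 and 325 TPM. MT-TE, the tRNA next to MT-ND6, did not share the order, at 435, 400 and 472 TPM in shCTL and 389, 434 and 439 TPM in shRor1. Of the tRNAs elsewhere in the genome, MT-TI, MT-TW, MT-TS1, MT-TG and MT-TR were also lowest in the second library of each group. What sets the second libraries apart was not tested.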
